A study of Mus musculus with 8 samples.

Results

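The genes described here make, sense and break down the eicosanoids, lipid signals made from arachidonic acid. In all, 10 genes were named for this account as leukotriene or prostaglandin genes, and every probe set that the platform annotation assigned to exactly 1 of them was taken. This gave 16 probe sets of 9 genes, out of 18193 genes with such a probe set. Of the 9, 5 belong to the leukotriene branch (Alox5, Alox5ap, Lta4h, Ltc4s and Ltb4r1) and 4 to prostaglandins or to the release of their precursor (Ptgs2, Ptges, Hpgd and Pla2g4c). Ptgs1 was not analysed here. The members were measured on 8 Affymetrix arrays of RNA from mice on a C57BL/6 background, all aged 110 days. Each tissue, colon and small intestine, gave 4 arrays. They held non-tumour tissue of wild-type mice (WT), non-tumour tissue of ACKR2-/- mice (ACKR2KO), tumours of ApcMin/+ mice (ApcMin) and tumours of ACKR2-/-ApcMin/+ mice (ACKR2KO_ApcMin). ApcMin/+ mice carry a mutated copy of the tumour suppressor Apc and grow intestinal tumours without further treatment. ACKR2, also named D6, is an atypical receptor that takes up inflammatory CC chemokines and does not signal in the usual way. RNA was pooled within each genotype and tissue, so each group had n = 1 array. Non-tumour tissue came from mice without the ApcMin allele, so the tumour and the Apc genotype cannot be told apart.

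Phospholipases A2 free arachidonic acid from membranes, and 2 branches compete for it. In the leukotriene branch, 5-lipoxygenase (Alox5) works with its membrane partner FLAP (Alox5ap) to make leukotriene A4, which Lta4h turns into leukotriene B4 and Ltc4s into the cysteinyl leukotriene C4. Leukotriene B4 draws neutrophils through its receptor, encoded by Ltb4r1. In the prostaglandin branch, the cyclooxygenases Ptgs1 and Ptgs2 (COX-2) make prostaglandin H2, Ptges makes prostaglandin E2 from it, and Hpgd (15-PGDH) inactivates prostaglandin E2. In the intestine, COX-2 and prostaglandin E2 are known for promoting adenoma growth, and Hpgd for opposing it. Leukotriene enzymes are known from mast cells, myeloid cells and the tuft cells of the epithelium.

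Values are array signals on the authors' scale, and a level of 1 gene cannot be set against that of another. Signals below 64.1 were set to this floor before log2 was taken. Where an array lay at the floor, the size of a difference is a lower limit. All 9 genes exceeded the floor in 2 or more arrays and were tested in limma among 14023 genes. Two-sided p-values were adjusted by Benjamini-Hochberg over all of these, and a difference was called under 0.05. Standard errors and p-values rest on how far the effect of ACKR2 loss differed between the tissues, not on the variation between animals. The arrays of a tissue and condition have no replicate, so the order of levels within a gene is a description.

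Array medians ran from 85.5 to 133.1. The sex of the animals differed between pools. Xist, which coats the inactive X in females, was at 7807 and 9809 in the WT arrays, at 77.9 and 127 in the ACKR2KO_ApcMin arrays and between 2818 and 4827 in the others. The Y-linked Eif2s3y was at 2.66 and 2.92 in the WT arrays and at 888 or more elsewhere. The tissue labels were checked against epithelial markers. The summed signal of 9 small-intestinal enterocyte markers ran from 3273 to 8422 in the colon arrays and from 122700 to 205200 in the small-intestinal ones. The WT small-intestinal array also held Car1, a colonocyte gene, at 18860, close to the 19160 of WT colon, while the other 3 small-intestinal arrays had 42.3 to 114. Aqp8, another colonocyte gene, was at 958 there and at 105 to 122 in those 3 arrays. The other colonocyte genes did not go with these. Atp12a, Scnn1b and Scnn1g were at 24.2, 56.6 and 3.96 in the WT small-intestinal array, against 15220, 374 and 467 in WT colon. Car4, Slc26a3 and Guca2a were at 9661, 4981 and 16330 there, below the 9812, 6718 and 21240 of ACKR2KO small intestine. The source of the Car1 and Aqp8 signal was not tested. Results of the small intestine and of WT tissue are also given without the WT arrays where that ends a call. The 3'/5' signal ratio of the Actb control was 1.28 to 1.39 in the 4 ACKR2-deficient arrays and 1.13 to 1.17 in the other 4.

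The sequence upstream of 5 members is shown because these were the members called in a comparison. Each run is the 250 bases before the annotated start in RefSeq on build GRCm38.p6, read on the strand of the gene. RefSeq held such a sequence for 9 of the 10 named genes, all but Alox5ap, which was not searched. The capitals mark the only matches to 6 motifs searched on both strands in these 9 genes.
Ptgs2, chr1:150099781-150100030, plus strand: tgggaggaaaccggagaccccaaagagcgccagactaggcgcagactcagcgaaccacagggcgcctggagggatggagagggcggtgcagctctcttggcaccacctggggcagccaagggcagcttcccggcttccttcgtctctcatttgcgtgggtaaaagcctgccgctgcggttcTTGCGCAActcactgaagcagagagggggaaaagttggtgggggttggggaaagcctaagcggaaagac
Lta4h, chr10:93453146-93453395, plus strand: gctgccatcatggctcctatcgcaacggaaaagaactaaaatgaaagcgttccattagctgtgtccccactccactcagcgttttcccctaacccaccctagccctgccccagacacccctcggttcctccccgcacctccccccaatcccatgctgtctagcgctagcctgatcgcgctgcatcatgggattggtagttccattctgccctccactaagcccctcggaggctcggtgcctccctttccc
Hpgd, chr8:56294302-56294551, plus strand: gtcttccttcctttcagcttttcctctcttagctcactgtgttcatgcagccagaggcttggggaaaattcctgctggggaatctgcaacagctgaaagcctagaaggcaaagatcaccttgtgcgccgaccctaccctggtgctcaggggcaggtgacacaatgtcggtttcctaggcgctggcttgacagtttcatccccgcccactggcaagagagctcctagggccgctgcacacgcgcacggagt
Ltc4s, chr11:50238533-50238782, minus strand: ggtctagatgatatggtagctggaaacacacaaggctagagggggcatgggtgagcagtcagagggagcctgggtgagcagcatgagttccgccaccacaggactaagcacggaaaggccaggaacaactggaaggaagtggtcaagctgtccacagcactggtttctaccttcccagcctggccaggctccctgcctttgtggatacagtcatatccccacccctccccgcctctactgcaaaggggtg
Pla2g4c, chr7:13329072-13329321, plus strand: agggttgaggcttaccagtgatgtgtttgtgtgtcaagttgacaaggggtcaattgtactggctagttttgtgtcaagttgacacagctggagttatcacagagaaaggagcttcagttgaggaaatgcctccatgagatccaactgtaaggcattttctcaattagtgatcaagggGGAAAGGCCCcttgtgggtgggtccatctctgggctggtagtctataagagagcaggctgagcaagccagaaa
The Ptgs2 run held the C/EBP motif TTNNGCAA as TTGCGCAA, 69 to 62 bases before the start. This motif was found in 9.56% of the 32851 RefSeq mouse promoters of the same length. The Pla2g4c run held the NF-kB motif (GGG, any 3 bases, TTCC) on the other strand, as GGAAAGGCCC, 73 to 64 bases before the start, and 4.65% of promoters held it. RefSeq gives Pla2g4c another start, whose run at chr7:13325417-13325666 held no match and is not shown. The E-box CACGTG, the CRE half-site TGACG, the TCF/LEF motif CTTTGA and the AP-1 motif TGANTCA had no match in any gene searched. Of all promoters 6.02%, 17.8%, 13.8% and 6.75% held them. No match overlapped another. These are matches of letters in this window and say nothing of a factor being bound there.

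The leukotriene genes differed from each other in where they were high. Alox5 had signals of 143 in WT, 73.0 in ACKR2KO, 124 in ApcMin and 95.9 in ACKR2KO_ApcMin colon. In small intestine it had 97.9, 159, 151 and 302 in the same order. The ACKR2KO_ApcMin small-intestinal tumours were thus the highest, and the other 7 arrays lay between 73.0 and 159 with tumour and non-tumour tissue intermingled. Alox5ap had 361, 438, 709 and 618 in colon and 298, 325, 457 and 1271 in small intestine. In both tissues its tumour arrays lay above its non-tumour arrays, and the same ACKR2KO_ApcMin small-intestinal array was again the highest. Lta4h had 2068, 2680, 3998 and 4676 in colon and 4677, 5617, 4847 and 5293 in small intestine. Its levels in non-tumour colon stood below the other 6 arrays, and the colon tumours lay between non-tumour colon and all 4 small-intestinal arrays. Ltc4s had 104, 176, 99.3 and 28.6 in colon and 177, 193, 290 and 357 in small intestine. Its tumour arrays were the lowest in colon and the highest in small intestine. Ltb4r1 had 3.72, 22.1, 21.3 and 2.33 in colon and 93.9, 5.36, 3.95 and 85.2 in small intestine. Only the WT and ACKR2KO_ApcMin small-intestinal arrays exceeded the floor for this receptor, so it was close to or below detection in every group.

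Among the prostaglandin genes, Ptgs2 had signals of 321 in WT, 301 in ACKR2KO, 629 in ApcMin and 595 in ACKR2KO_ApcMin colon. In small intestine it had 199, 142, 349 and 242. Within each tissue its tumour arrays lay above its non-tumour arrays. Ptges followed the same order of arrays in colon, with 219, 195, 291 and 264. In small intestine Ptges had 158, 77.7, 207 and 125, where the ACKR2KO_ApcMin tumours fell between the non-tumour arrays. Hpgd had 5222, 9477, 2127 and 1002 in colon and 6695, 15150, 4893 and 10160 in small intestine. Its colon tumours were the lowest of all 8 arrays. Pla2g4c, a cytosolic phospholipase A2 that does not need calcium, had 39.9, 25.3, 92.0 and 88.5 in colon and 218, 464, 564 and 7921 in small intestine. Its highest array, the ACKR2KO_ApcMin small-intestinal tumours, was at least 124-fold above its lowest, which lay below the floor.

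**Figure D1:**
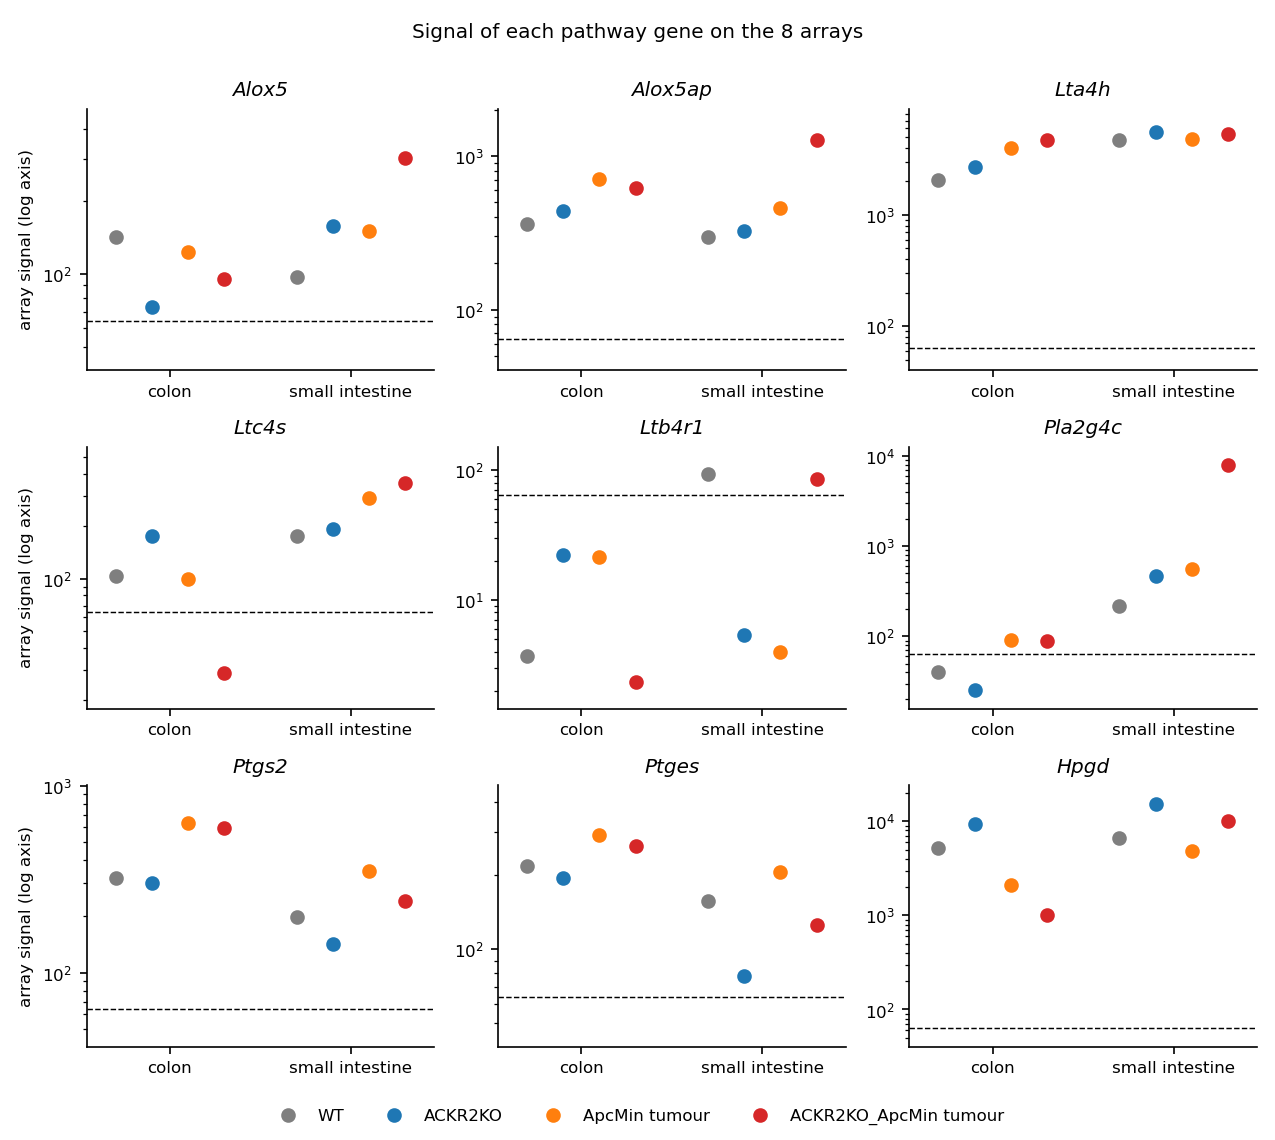
Array signal (log axis) of the probe set used for each of the 9 genes, with 1 point per array, by tissue and colour-coded group; the dashed line is the floor of 64.1. Hpgd is lowest in the colon tumours (2127 and 1002), Ptgs2 is higher in tumours than in non-tumour tissue of the same organ, and Pla2g4c reaches 7921 in ACKR2KO_ApcMin small-intestinal tumours.

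Of the 9 genes, 5 had more than 1 probe set, and these did not always move together. The other Hpgd probe set had 265, 428, 105 and 77.1 in colon and 253, 486, 213 and 415 in small intestine, the same order of groups within colon. The other Ptgs2 probe set had 104, 93.5, 303 and 212 in colon and 59.4, 50.6, 128 and 45.15 in small intestine, higher in tumours in 3 of the 4 tumour pairs. The other Pla2g4c probe set had 1833 in ACKR2KO_ApcMin small-intestinal tumours and 84.15 to 195 in the other 7 arrays. The other 2 Lta4h probe sets ran from 99.4 to 423 and from 16.7 to 126, and neither was higher in both colon tumours than in both non-tumour arrays. The other 2 Ptges probe sets ran from 5.95 to 141 and from 59.8 to 125.

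Colon tumours were compared with non-tumour colon, averaged over ACKR2 status, to ask which of these genes differ in tumours. Lta4h and Ptgs2 rose and Hpgd fell. Lta4h was higher by 0.88 ± 0.136 (SE) on the log2 scale, or 1.84-fold (limma adjusted p = 0.00922). Ptgs2 was higher by 0.98 ± 0.264, or 1.97-fold (adjusted p = 0.0439). Hpgd, the enzyme that inactivates prostaglandin E2, fell by 2.27 ± 0.456, or 4.82-fold (adjusted p = 0.0194). Each of the 3 had the same direction in 2 of 2 pairs of arrays, and its tumour and non-tumour arrays did not overlap. The same held for the uncalled Alox5ap, Ltc4s, Ptges and Pla2g4c, so this does not set the called genes apart. The share of all tested genes without overlap was not counted. Of all tested genes 23.6% were called in this comparison, so 3 calls among 9 are not set apart from the general number of differences. The other members gave values that did not pass. Alox5ap was at 0.74 ± 0.394 (adjusted p = 0.229), Ptges at 0.43 ± 0.316 (adjusted p = 0.381) and Alox5 at 0.09 ± 0.485 (adjusted p = 0.934). Ltc4s was at -0.76 ± 0.323 (adjusted p = 0.143), and its signal of 28.6 in ACKR2KO_ApcMin tumours counted as the floor. Pla2g4c was at 0.49 ± 0.845 from non-tumour arrays at the floor (adjusted p = 0.725), and Ltb4r1 was at the floor in all 4 colon arrays.

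The size of the change in Hpgd differed between the pairs. It was -1.30 between ApcMin tumours and WT colon and -3.24 between ACKR2KO_ApcMin tumours and ACKR2KO colon. For Ptgs2 the same pairs gave 0.97 and 0.98, and for Lta4h 0.95 and 0.80. Tested by its other probe set among 25776 probe sets, Hpgd fell by 1.90 ± 0.375 on the log2 scale (limma adjusted p = 0.0188). The other Ptgs2 probe set was higher by 1.36 ± 0.232 (adjusted p = 0.0125). The other 2 Lta4h probe sets gave -0.12 ± 0.289 (adjusted p = 0.82) and -0.27 ± 0.257 (adjusted p = 0.51), and the mean of its 3 probe sets gave 0.16 (adjusted p = 0.604), so the rise of Lta4h rests on the probe set with the highest mean. With 1 array left out, 1 residual degree of freedom remained. Lta4h then passed only without the ACKR2KO_ApcMin small-intestinal array (adjusted p = 0.0491) and otherwise had adjusted p-values of 0.0502 to 0.248. Hpgd passed without that array (adjusted p = 0.0481) or without the ApcMin small-intestinal one (adjusted p = 0.0492). Without any other single array it had 0.0802 to 0.303, and its value was -1.20 without ACKR2KO_ApcMin colon and -3.34 without ApcMin colon. Ptgs2 passed in none of the 8 cases, at 0.75 to 1.20 (adjusted p = 0.0827 to 0.378). Without both WT arrays, which leaves ACKR2-deficient tissue as the only non-tumour tissue, Lta4h was at 0.78 (adjusted p = 0.143), Ptgs2 at 0.87 (adjusted p = 0.28) and Hpgd at -2.71 (adjusted p = 0.127).

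**Figure D2:**
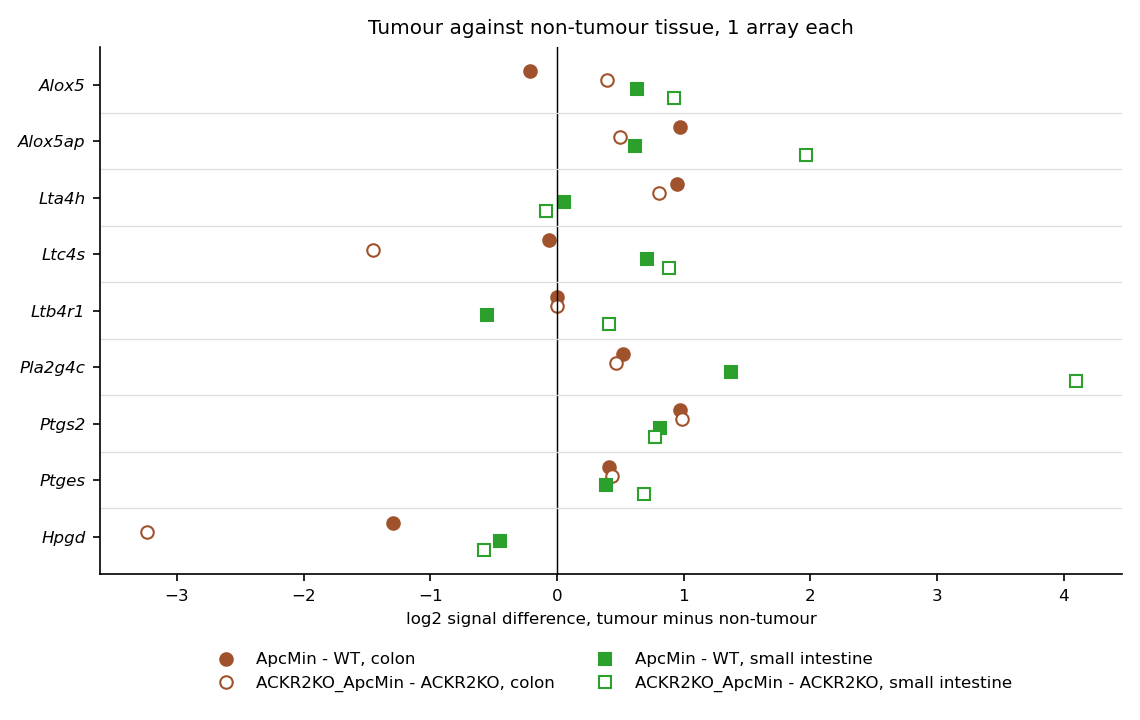
Log2 signal difference between tumour and non-tumour tissue for each gene, 1 point per pair of arrays, with circles for colon and squares for small intestine, filled for ApcMin against WT and open for ACKR2KO_ApcMin against ACKR2KO. Ptgs2 lies between 0.77 and 0.98 in all 4 pairs, Hpgd below 0 in all 4, and Lta4h at 0.95 and 0.80 in colon and at 0.05 and -0.09 in small intestine; pairs with an array at the floor are lower limits.

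In small-intestinal tumours 0 of 9 members were called by limma, beside 3.97% of all tested genes. An unadjusted p under 0.05 was found for 2827 of the 14023 tested genes and for 4 members. These 4 were Pla2g4c at 2.73 ± 0.845 on the log2 scale (adjusted p = 0.149), Alox5ap at 1.29 ± 0.394 (adjusted p = 0.146), Ltc4s at 0.80 ± 0.323 (adjusted p = 0.241) and Ptgs2 at 0.79 ± 0.264 (adjusted p = 0.173). Each of the 4 was higher in 2 of 2 pairs, as were Alox5 and Ptges. Pla2g4c was at 1.37 in the ApcMin pair and at 4.09, or 17.1-fold, in the ACKR2KO_ApcMin pair. Alox5ap was at 0.61 and 1.97 in the same pairs, while Ptgs2 was at 0.81 and 0.77. Hpgd was at -0.52 ± 0.456 (adjusted p = 0.587), and its tumour arrays overlapped its non-tumour arrays. Lta4h, which rose in colon tumours, was at -0.02 ± 0.136 here (adjusted p = 0.982). Alox5 was at 0.78 ± 0.485 (adjusted p = 0.432), Ptges at 0.54 ± 0.316 (adjusted p = 0.4) and Ltb4r1 at -0.07 (adjusted p = 0.902).

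Whether a tumour effect differed between the tissues was tested as the colon effect minus the small-intestinal effect. Here 0 of 9 members passed in limma, beside 2.25% of all tested genes. An unadjusted p under 0.05 was found for 2663 of the 14023 tested genes and for 3 members. Lta4h gave 0.89 ± 0.193 (adjusted p = 0.0829), Hpgd -1.75 ± 0.646 (adjusted p = 0.219) and Ltc4s -1.56 ± 0.457 (adjusted p = 0.148). Ltc4s was at -0.07 and -1.45 in the colon pairs and at 0.71 and 0.88 in the small-intestinal pairs. A difference between the tissues was therefore not shown for Hpgd or Lta4h, although their change passed in colon alone. For Ptgs2 the difference was 0.19 ± 0.374 (adjusted p = 0.834).

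Tumours and non-tumour tissue with and without ACKR2 were compared to ask whether loss of this chemokine receptor goes with a change in the pathway. In tumours, 0 of 9 members were called, and 0 had an unadjusted p under 0.05. Of the 14023 tested genes 0.0357% were called there, and 2188 had an unadjusted p under 0.05. In non-tumour tissue the member counts were also 0 and 0, beside 0.685% of all tested genes called and 3478 with an unadjusted p under 0.05. Pla2g4c had the lowest p-value in tumours, at 1.88 ± 0.845 on the log2 scale (limma adjusted p = 0.352). That average joined -0.06 in colon tumours and 3.81, or 14.0-fold, in small-intestinal tumours, where the signal was 564 in ApcMin and 7921 in ACKR2KO_ApcMin. The other Pla2g4c probe set differed by -0.33 and 3.24 in the same pairs. Alox5ap was at -0.20 in colon tumours and 1.48 in small-intestinal tumours, and Alox5 at -0.37 and 0.99. Ltc4s was at -0.63, from an array at the floor, and 0.30, and Lta4h at 0.23 and 0.13. Hpgd was at -1.09 and 1.05, so that its average was -0.02 ± 0.456 (adjusted p = 1). The prostaglandin synthases gave small or negative values in all 4 ACKR2 pairs. Ptgs2 was at -0.09 in non-tumour colon, -0.49 in non-tumour small intestine, -0.08 in colon tumours and -0.53 in small-intestinal tumours. Ptges was at -0.17, -1.02, -0.14 and -0.72 in that order. The colon values of both genes were smaller than the gaps between array medians, so their signs depend on the scaling. These medians were 133.1 in WT and 86.1 in ACKR2KO colon, and 115.5 in ApcMin and 96.3 in ACKR2KO_ApcMin colon. In colon tumours 1 of the other 2 Ptges probe sets went up, from 81.5 in ApcMin to 96.3 in ACKR2KO_ApcMin. It was lower with ACKR2 loss in the other pairs. Averaged over tissues, Ptges was at -0.43 ± 0.316 in tumours (limma adjusted p = 0.54) and at -0.59 ± 0.316 in non-tumour tissue (adjusted p = 0.306).

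Without tumours, Hpgd was higher in ACKR2KO tissue by 0.86 in colon and by 1.18 in small intestine, and the average of 1.02 ± 0.456 did not pass (limma adjusted p = 0.234). Lta4h was at 0.37 and 0.26, with an average of 0.32 ± 0.136 (adjusted p = 0.217). Its other probe sets went the other way, at -1.15 ± 0.289 (limma adjusted p = 0.059) and -0.40 ± 0.257 (adjusted p = 0.368). When each array was centred on its median signal, both Hpgd and Lta4h passed, by their probe sets with the highest mean. That scaling took the median difference of all genes here from -0.02 to 0.44. Scaling also turned the sign of the uncalled averages of Alox5, from -0.14 to 0.41 with this centring and 0.42 with quantile normalization, and of Ptgs2, from -0.29 to 0.26 and 0.08. The effect of ACKR2 loss in tumours minus that in non-tumour tissue passed for 0 of 9 members, beside 0.00713% of all tested genes. An unadjusted p under 0.05 was found for 1131 of the 14023 tested genes and for 0 members. Hpgd gave -1.04 ± 0.646 in that test (limma adjusted p = 0.721). The sex markers and the Actb 3'/5' ratio differed between the pools as given above. Both changed with ACKR2 status in tumours and in non-tumour tissue, so their part in these values cannot be told apart from it. Xist was also lower in every tumour array than in the non-tumour array of the same tissue and ACKR2 status. Sex thus cannot be told apart from the tumour effects either.

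**Figure D3:**
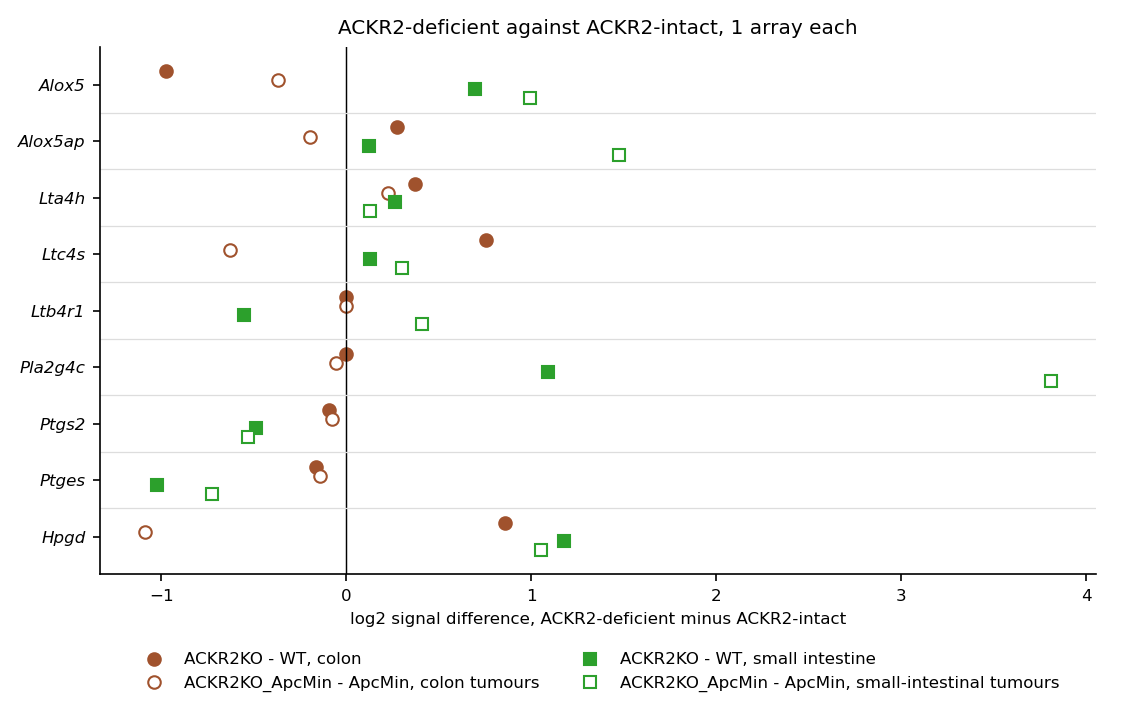
Log2 signal difference between ACKR2-deficient and ACKR2-intact tissue for each gene, 1 point per pair of arrays, with circles for colon, squares for small intestine, filled for non-tumour tissue and open for tumours. Pla2g4c stands at 3.81 and Alox5ap at 1.48 in small-intestinal tumours but at -0.06 and -0.20 in colon tumours. Ptges and Ptgs2 are below 0 in all 4 pairs by the probe sets shown. The signs of all these colon values depend on the scaling.

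Colon was also compared with small intestine. In non-tumour tissue Lta4h was lower in colon, at -1.12 ± 0.136 on the log2 scale or 2.18-fold (limma adjusted p = 0.00379), in 2 of 2 pairs. It was the only member called, beside 21.4% of all tested genes. Its other 2 probe sets were at -0.94 ± 0.289 (adjusted p = 0.0736) and 0.14 ± 0.257 (adjusted p = 0.763). Ptgs2 was at 0.89 ± 0.264 (adjusted p = 0.0613), Ptges at 0.90 ± 0.316 (adjusted p = 0.0961) and Pla2g4c at -2.31 ± 0.845 from colon arrays at the floor (adjusted p = 0.106). Lta4h kept its call without the ApcMin or the ACKR2KO_ApcMin small-intestinal array (adjusted p = 0.0488 and 0.0469) and had adjusted p-values of 0.0501 to 0.22 without any other array, the WT small-intestinal one included (-1.07, adjusted p = 0.19).

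Between tumours, 4 of 9 members differed by tissue, beside 13.1% of all tested genes. Ptgs2 was higher in colon tumours by 1.07 ± 0.264 on the log2 scale, or 2.11-fold (limma adjusted p = 0.0485). Ltc4s was lower in colon tumours, at -2.01 ± 0.323 or 4.03-fold (adjusted p = 0.0131). Hpgd was lower, at -2.27 ± 0.456 or 4.83-fold (adjusted p = 0.027). Pla2g4c was lower, at -4.55 ± 0.845 or 23.4-fold (adjusted p = 0.0211). Among single probe sets, the other one of Pla2g4c was at -2.52 ± 0.749 and did not pass (adjusted p = 0.0883). Those of Ptgs2, at 1.48 ± 0.232, and Hpgd, at -1.73 ± 0.375, did (adjusted p = 0.0135 and 0.0372). The Ptgs2 probe set behind the call did not pass there (adjusted p = 0.0527). Ptges was not called, at 0.79 ± 0.316 (adjusted p = 0.158). Its other probe sets were at 0.99 ± 0.196, which passed (adjusted p = 0.0282), and 0.06 ± 0.291 (adjusted p = 0.933). Each of the 4 called members kept 1 direction in 2 of 2 pairs, as did the uncalled Alox5, Lta4h and Ptges. The sizes for the called members differed between the pairs. Pla2g4c was at -2.62 in ApcMin and -6.49 in ACKR2KO_ApcMin tumours, and Hpgd at -1.20 and -3.34. Ltc4s was at -1.55 and -2.48, the latter a lower limit of its size. None of the 4 passed with any 1 of the 8 arrays left out, at adjusted p-values of 0.0744 to 0.346, or without both WT arrays, at 0.0607 to 0.132. Their values with 1 array left out ran from -6.49 to -2.62 for Pla2g4c, from -3.34 to -1.20 for Hpgd, from -2.52 to -1.55 for Ltc4s and from 0.85 to 1.30 for Ptgs2.

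Around the members stand other genes of the same pathways, of which 43 were tested. In colon tumours 8 of the 43 rose and 11 fell, beside the 23.6% called among all tested genes, and their median log2 difference was -0.13, against 0 for all tested genes. The largest rise was in the transcript of Pla2g2a, a secreted phospholipase A2 known as a modifier of tumour number in ApcMin mice. Whether active enzyme was made was not measured. Pla2g2a had signals of 294, 72.2, 7951 and 10070 in WT, ACKR2KO, ApcMin and ACKR2KO_ApcMin colon. In small intestine they were 2547, 1342, 7868 and 5142. Pla2g2a rose by 5.94 ± 0.323 on the log2 scale in colon tumours (limma adjusted p = 0.000783) and by 1.78 ± 0.323 in small-intestinal tumours (adjusted p = 0.042). The difference between these effects was 4.16 ± 0.457 (adjusted p = 0.0177). Pla2g12a, another secreted phospholipase, rose by 2.08 ± 0.39 in colon tumours (adjusted p = 0.016) and Pla2g6 by 0.89 ± 0.247 (adjusted p = 0.0473). Pla2g6 passed in 4 of 11 alternative settings that keep all arrays, with values from 0.17 to 0.91. Pla2g4f and Pla2g3 fell by 1.42 and 1.05 (adjusted p = 0.0111 and 0.0166).

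Among the other lipoxygenases, Alox12, the platelet-type 12-lipoxygenase, had signals of 69.3, 94.7, 876 and 1811 in colon and 66.0, 42.0, 92.6 and 93.6 in small intestine. It was thus high in colon tumours and between 42.0 and 94.7 elsewhere. It rose by 3.96 ± 0.326 on the log2 scale in colon tumours (limma adjusted p = 0.00201), and the difference from small intestine was 3.44 ± 0.46 (adjusted p = 0.0275). Alox15 rose by 1.20 ± 0.269 in colon tumours (adjusted p = 0.0259) and passed in 5 of 9 such settings. In the leukotriene lists, Lta4h was the only 1 of 7 tested synthesis genes to pass in colon tumours. Among 4 breakdown genes Ptgr1, which also reduces prostaglandins, rose by 1.37 ± 0.165 (adjusted p = 0.00489) and Cyp4f16 fell by 1.04 ± 0.223 (adjusted p = 0.0232).

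The 5 genes of prostanoid breakdown and transport were all called in colon tumours, where 23.6% of all tested genes were, with 1 higher, 4 lower and a median log2 difference of -1.27. Besides Hpgd, Slco2a1, which carries prostaglandins into cells, had signals of 2414, 3092, 957 and 272.5 in colon and 2368, 2565, 1842 and 2193 in small intestine. Its colon tumours were the lowest of the 8 arrays, as for Hpgd, and it fell there by 2.42 ± 0.441 on the log2 scale (limma adjusted p = 0.0148). Slco3a1 fell by 1.27 ± 0.327 (adjusted p = 0.0383) and Ptgr2 by 0.61 ± 0.146 (adjusted p = 0.0302). Abcc4, an exporter of prostaglandin E2, had 728, 681, 3010 and 4975 in colon and 294, 208, 1690 and 715 in small intestine, and it rose by 2.46 ± 0.434 in colon tumours (adjusted p = 0.0135). Hpgd is 1 of the 4 lower genes of this list.

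Of 8 tested prostanoid synthesis genes, 1 rose in colon tumours, namely Ptgs2, and 3 fell. This count and that of the receptors below stand beside 23.6% of all tested genes called there. Ptgis, the prostacyclin synthase, had signals of 960, 1060, 174 and 92.5 in colon and 197, 246, 103 and 31.4 in small intestine. It fell by 2.99 ± 0.25 on the log2 scale in colon tumours (limma adjusted p = 0.00208) and by 1.44 ± 0.25 in small-intestinal tumours (adjusted p = 0.0373). Hpgds, a prostaglandin D2 synthase, fell by 1.125 ± 0.202 (adjusted p = 0.0141) and Cbr1 by 1.25 ± 0.311 (adjusted p = 0.0347) in colon tumours. Of 6 tested receptors, Ptger4, the EP4 receptor of prostaglandin E2, rose by 0.72 ± 0.148 (adjusted p = 0.0205). Ptger3, the EP3 receptor, fell by 3.29 ± 0.29 (adjusted p = 0.00245) and the thromboxane receptor Tbxa2r by 1.52 ± 0.273 (adjusted p = 0.0141). In small-intestinal tumours 2 of the 43 genes passed, Pla2g2a and Ptgis, beside 3.97% of all tested genes. In the ACKR2 comparisons 0 of the 43 passed in limma. An unadjusted p under 0.05 was found for 7 of them in tumours and for 11 in non-tumour tissue. Among the 14023 tested genes it was found for 2188 and 3478, a similar share. Of the 19 genes called in colon tumours, 8 still passed without the ApcMin or without the ACKR2KO_ApcMin small-intestinal array (Abcc4, Alox12, Pla2g12a, Pla2g2a, Ptger3, Ptgis, Ptgr1 and Slco2a1), and 0 without any 1 of the other 6 arrays. Without both WT arrays 3 passed (Pla2g2a, Ptger3 and Ptgis). Without the ACKR2KO_ApcMin colon array, 6 values shrank by over 1.5 times: Abcc4 to 1.475, Pla2g12a to 1.30, Slco2a1 to -1.39, Slco3a1 to -0.72, Cyp4f16 to -0.63 and Cbr1 to -0.60. Without the ApcMin colon array Cbr1 was at -1.90, and without both WT arrays Alox15 was at 1.99. The calls in small-intestinal tumours and in the difference between the tissues were lost with any 1 array left out.

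**Figure D4:**
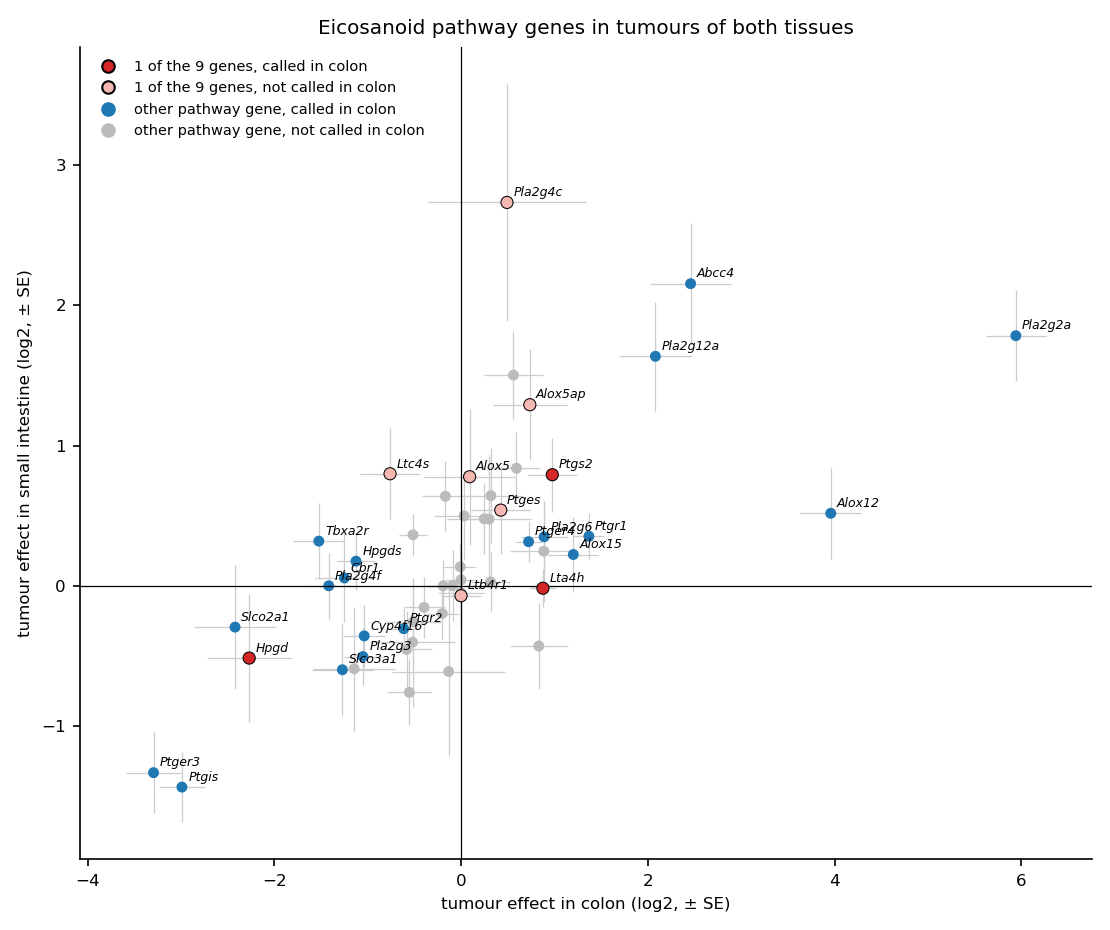
Tumour effect in small intestine against the tumour effect in colon for the 9 genes (outlined) and the 43 other pathway genes, as log2 differences with SE bars; red or blue points were called in colon. Hpgd and Slco2a1 lie at -2.27 and -2.42 in colon, Ptgis lies at -2.99 in colon and -1.44 in small intestine, Ptger3 at -3.29 and, not called, -1.33, and Pla2g2a lies at 5.94 in colon and 1.78 in small intestine.

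Between the tissues, 17 of the 43 genes differed without tumours (9 higher and 8 lower in colon), where 21.4% of all tested genes did. In tumours 14 of the 43 differed (6 higher and 8 lower), beside 13.1% of all. A pair of genes of the phospholipase A2 list kept a large difference in both, and enzyme activity was not measured. Pla2g10 was higher in colon by 2.955 ± 0.15 on the log2 scale without tumours (limma adjusted p = 0.000196) and by 2.08 ± 0.15 in tumours (adjusted p = 0.00107). Pla2g12b was lower, at -4.66 ± 0.459 (adjusted p = 0.00198) and -4.78 ± 0.459 (adjusted p = 0.00276). Of the cytosolic phospholipases, Pla2g4a, the enzyme that arachidonic acid release is best known for, was higher in colon by 1.71 ± 0.18 in both conditions (adjusted p = 0.00242 and 0.00364). Pla2g4c had the opposite direction. Cyp4f14, which inactivates leukotriene B4, was lower in colon, at -3.42 ± 0.441 without tumours (adjusted p = 0.00459) and -3.97 ± 0.441 in tumours (adjusted p = 0.00422). Of the 17 calls without tumours, 0 passed with any 1 non-tumour array left out and 4 to 10 with any 1 tumour array left out. Of the 14 in tumours, 0 passed with any 1 array left out.

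Markers of cells that could carry these transcripts moved with the comparisons, and in bulk tissue fewer cells of a type and less RNA per cell cannot be told apart. The marker counts here and below stand beside 23.6% of all tested genes called in colon tumours and 3.97% in small-intestinal tumours. In small-intestinal tumours 8 of 11 tested mast cell genes rose and 0 fell, with a median log2 difference of 2.27. Their summed signal was 1159 and 1004 without tumours, 14930 in ApcMin and 28030 in ACKR2KO_ApcMin tumours. The mast cell protease Mcpt1 had signals of 7561 and 14040 in those tumours. In colon 3 of the 11 rose, and the sum was 1531, 1200, 1538 and 6183. Alox5, Alox5ap, Ltc4s and Pla2g4c were at their highest in the array with the highest mast cell sum. That array also had the highest sums of the B cell, eosinophil and enterocyte markers. In colon the mast cell sum was highest in ACKR2KO_ApcMin tumours, where none of these members was at its colon maximum. The part of mast cells in the values of these members was not tested. In colon tumours 3 of 6 tested neutrophil genes rose, among them S100a8 (681, 205.5, 7695 and 7478 in colon), and the summed signal was 1183, 611, 13090 and 11480. In small intestine it ran from 356 to 708. The neutrophil genes Mpo, Camp and Cxcr2 were at or below the floor in all 8 arrays. Of 10 macrophage and monocyte genes, 3 rose and 1 fell in colon tumours, and the sum ran from 11130 to 13690 without tumours and from 20900 to 25140 in tumours. In small intestine the macrophage sum ran from 12070 to 15000.

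Tuft cell genes gave a mixed picture. Of 6 tested, 1 rose in colon tumours and 1 in small-intestinal tumours, in both cases Avil. Avil had signals of 139, 98.2, 2365 and 3982 in colon and 278, 165, 2638 and 1844 in small intestine. It made up most of the summed tuft signal of 2890 to 4483 in tumours and was the only gene of the list to pass. Il25, Gfi1b and Chat were at or below the floor in all arrays. Smooth muscle fell in tumours, with 10 of 10 genes in colon and 7 of 10 in small intestine. Its summed signal was 137500, 116300, 36200 and 9834 in colon and 65270, 69980, 27170 and 12570 in small intestine, so that it also differed between ApcMin and ACKR2KO_ApcMin tumours. Of 8 colonocyte genes 5 fell in colon tumours, and their sum was 102200, 105500, 44420 and 23590 there. Of the 9 enterocyte genes 2 fell in colon tumours and 0 in small-intestinal tumours. Hpgd, Slco2a1, Ptgis and Ptger3 were low in the same colon tumours as the muscle and colonocyte genes, and the part of these cell types in their values was not tested.

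For each member, the genes with the most similar signals over the 8 arrays were found, by the root mean square difference of log2 signals after the mean of each gene was taken off. Genes near the floor match each other easily by this measure, so the distance is read against the member's own spread. Alox5 was nearest to Dclk1, a kinase that marks tuft cells, at 0.161 on the log2 scale against a spread of 0.579, the smallest distance among 14022 genes. Dclk1 had signals of 201, 120, 169 and 129 in colon and 184, 223, 209 and 409 in small intestine. Its highest array was again that of ACKR2KO_ApcMin small-intestinal tumours. The other 8 Dclk1 probe sets lay at 0.288 to 0.714 from Alox5, and 2 of them were above the floor in no array. The tuft genes Il17rb, Trpm5 and Sh2d6 ranked 218, 329 and 360, while Pou2f3 and Avil ranked 8042 and 13830. The next genes after Dclk1 were Setd1a (0.288) and Tex13a (0.294).

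Alox5ap was nearest to Tspan6 (0.136 against a spread of 0.65), then to Prima1 (0.311) and Cldn18 (0.322). Lta4h was nearest to Tgm2, Cers2 and Hspa5, at 0.121, 0.129 and 0.149 against a spread of 0.477. Ltc4s was nearest to Nrn1 (0.216 against 0.773), Rab30 and Mia2. Ltb4r1 was nearest to Mst1, Arr3 and 1700001K19Rik, which like it lay near the floor, with signals of at most 96.1. Ptgs2 was nearest to Zfp647 (0.132 against 0.687), Znrf1 and Pkp1, and Ptges to Cep97 (0.104 against 0.581), Apoe and Hlcs. Hpgd was nearest to Rnf152 (0.267 against 1.20), Aldh1a7 and Sult1d1, the latter a sulfotransferase with 5278, 9770, 3338 and 1411 in colon and 9420, 12810, 5881 and 9811 in small intestine. Pla2g4c was nearest to Reg1 (0.565 against 2.21), a secreted protein of regenerating epithelium, then to G6pc (0.632) and Rgs13 (0.836). Reg1 had a signal of 10410 in ACKR2KO_ApcMin small-intestinal tumours and 7.28 to 272 in the other 7 arrays, so its likeness to Pla2g4c rests mainly on that array.

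**Figure D5:**
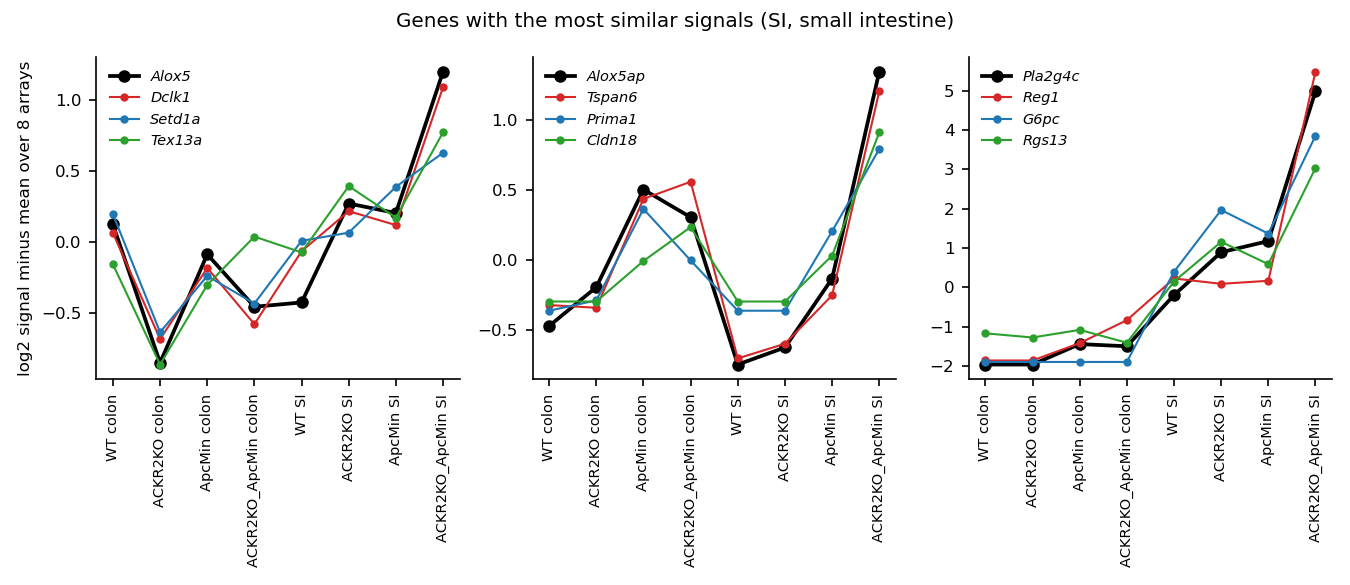
Log2 signal minus its mean over the 8 arrays (SI, small intestine) for Alox5, Alox5ap and Pla2g4c (black) and the 3 genes nearest to each; values below the floor were set to it. Dclk1 follows Alox5 at a root mean square difference of 0.161, and the 3 genes nearest to Pla2g4c share its peak in ACKR2KO_ApcMin small-intestinal tumours.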

How the data were processed

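The authors deposited 1 column of intensity values per array on the linear scale, from MAS5 with Partek, per the submitters' processing notes, which give no versions. Arrays had a trimmed mean of 500 (2% cut from either tail). Per the labels' protocols, RNA came from Trizol and RNeasy extraction and was amplified with a 3' IVT Express kit. Per the series' design text, it was pooled by genotype and tissue. Pool sizes are not given in the sources used here. The array holds 45101 probe sets, 64 of them controls. The platform annotation gave 34945 a single gene, 932 more than 1 gene and 9160 no gene.

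The floor of 64.1 (log2 6.00) was set at the 40th percentile of signals, taken per array, then the median of these 8 values. Each gene was represented by its probe set with the highest mean. The model (limma 3.58.1 in R 4.3.3, empirical Bayes with a trend) had 6 coefficients: a mean for every tissue and tumour state, and 2 effects of ACKR2, for tumours and for non-tumour tissue, each common to colon and small intestine. It left 2 residual and 4.16 prior degrees of freedom, with a median standard deviation of 0.20 on the log2 scale. The procedure was run on simulated arrays with independent noise of the size the model estimated and ACKR2 effects common to both tissues. Such arrays cannot show how the p-values behave where the ACKR2 effect differs between tissues. The number of arrays limits the precision.

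Members and lists were chosen with earlier results of these data known. Named were all members, pathway genes called in a comparison (up to 8 per direction by size), the 3 nearest genes of each member, up to 4 genes per marker list in list order, and Xist and Eif2s3y. Pla2g3, Cyp4f16, Ptgr2, Avil, Sh2d6, Il17rb, Atp12a, Scnn1b, Scnn1g, Guca2a and markers listed as at the floor fall outside this rule. They were named after their values were seen. The marker lists were mast cells, tuft cells, neutrophils, macrophages and monocytes, eosinophils, B cells, smooth muscle, fibroblasts, epithelium, small-intestinal enterocytes and colonocytes. Alternatives were other floors and filters, quantile normalization, median centring, other handling of probe sets, an additive model, no trend, and leaving out arrays.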

Additional observations from a re-analysis of the deposited data

Results flagged for a closer look

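Among genes above the floor in all 4 tumour arrays, the pairs that differ in ACKR2 moved in opposite directions in the 2 tissues for 4 genes. Alox5 was at -0.37 on the log2 scale in colon tumours and 0.99 in small-intestinal tumours, a gap of 1.36. Alox5ap was at -0.20 and 1.48, a gap of 1.68. Hpgd was at -1.09 and 1.05, a gap of 2.14. Pla2g4c was at -0.06 and 3.81, a gap of 3.87. The colon values of Pla2g4c and Alox5ap were smaller than the gap between the array medians. These medians were 115.5 in ApcMin and 96.3 in ACKR2KO_ApcMin colon, so the 2 signs depend on the scaling. Lta4h, Ptgs2 and Ptges, also above the floor in these arrays, moved in the same direction in both tissues. How many of all tested genes moved in opposite directions was not counted. Ltc4s did so too, at -0.63 and 0.30, but its ACKR2KO_ApcMin colon array lay below the floor. In non-tumour tissue Alox5 also moved in opposite directions, at -0.97 in colon and 0.70 in small intestine, a gap of 1.67. These differences between the tissues were not tested, since each value comes from 1 pair of arrays and the model uses these same gaps as its measure of spread.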

How the results depend on the processing

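No paired analysis was possible because each group had a single replicate number, although the ACKR2 terms common to both tissues already set the colon and small-intestinal arrays of a genotype against each other. Among the 9 members, 3 calls in colon tumours became 0 without the filter on low signals and 0 without both WT arrays, 2 with median centring (Ptgs2 lost) and 2 with the mean of all probe sets (Lta4h lost). With 1 array left out the count ran from 0 to 2. The call in non-tumour colon against small intestine became 3 with no floor (Ptgs2 and Pla2g4c added), 2 with the filter on all 8 arrays or with no trend (Ptgs2 added in each), and 0 with the mean of all probe sets or without both WT arrays. With 1 array left out it ran from 0 to 1. The 4 calls between tumours of the 2 tissues became 0 without the filter, 2 with the filter on all 8 arrays (Ptgs2 and Hpgd) or with the mean of all probe sets (Ltc4s and Ptgs2), 0 without both WT arrays, and 0 to 0 with 1 array left out. The ACKR2 comparison in non-tumour tissue went from 0 to 2 with median centring. The other 4 comparisons kept 0 calls. No called value changed its sign. Leaving out an array leaves 1 residual degree of freedom. For the other settings the cause was not tested.

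Over all genes, leaving out 1 array moved the 3312 calls in colon tumours to between 0 and 1082, and no filter left 87. Median centring moved the 18 higher and 78 lower calls of the ACKR2 comparison in non-tumour tissue to 3600 and 173, and quantile normalization to 5 and 21. It also moved the split of higher against lower calls from 389 and 168 to 254 and 220 in small-intestinal tumours, from 103 and 213 to 111 and 103 in the difference between the tumour effects, from 1821 and 1178 to 1290 and 1245 between non-tumour tissues, and from 808 and 1032 to 1023 and 808 between tumours. Signs that turned with scaling belonged to values that were not called: Ltc4s in the ACKR2 comparison of tumours (from -0.17 to 0.01 with quantile normalization and 0.02 with median centring), Hpgd there (from -0.02 to 0.27 with median centring) and Lta4h in small-intestinal tumours (from -0.02 to 0.06 with quantile normalization). The effect of ACKR2 in tumours minus non-tumour tissue has no value in the additive model, and neither it nor the ACKR2 comparison in non-tumour tissue has one without both WT arrays. Dim probe sets, such as that of Ltb4r1, carry little above the floor.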

Other observations

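Markers of 4 cell groups not described above were also measured. B cell genes rose in small-intestinal tumours, 5 of 6 tested, with a summed signal of 1538 and 445 without tumours, 7059 in ApcMin and 11150 in ACKR2KO_ApcMin tumours. In colon 0 of the 6 rose and 1 fell. Fibroblast genes fell in colon tumours for 3 of 8 and in small-intestinal tumours for 2 of 8, and their summed signal was 39230 in ApcMin and 22860 in ACKR2KO_ApcMin colon tumours. Of 2 tested eosinophil genes 1 rose in colon tumours, and Epx and Ccr3 were at or below the floor in all arrays. Of 8 epithelial genes 1 rose in tumours of each tissue, and their sum ran from 101900 to 105900 in colon.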
